A study of Caenorhabditis elegans with 2 samples.

Results

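Chromosome III of Caenorhabditis elegans held 4731 of the 30000 regions listed in the pooled result of a chromatin immunoprecipitation sequencing (ChIP-seq) experiment on the zinc finger protein ZIM-3. The members were all regions of that list whose chromosome is III, whatever their signal. Chromosome III was chosen with earlier results of these data known, and the p-values below make no allowance for that choice. Of them, 167 were among the 906 regions of highest signal on all chromosomes, and they are called high-signal here. The cut at 906 follows the authors' list thresholded by irreproducible discovery rate (IDR), a procedure based on agreement of peak ranks between replicates. All 906 of its peaks were the 906 highest pooled regions. A high-signal region is thus one of high pooled signal, and it need not agree between replicates on its own. The lowest high-signal region of III had a signal of 141.2 and the highest region of III below the cut had 139.9, in the authors' units.

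The animals were whole young adults of strain OP581, collected as mixed sexes 54.5 h after synchronization at the L1 stage. Their genotype was unc-119(tm4063) III with the transgene wgIs581, whose ZIM-3 carries GFP-FLAG at its C terminus, and chromatin was precipitated through the GFP. There was 1 group of 2 biological replicates, so positions in the genome were compared and not conditions. An untagged strain was not analysed here, so signal at a place cannot be assigned to ZIM-3 rather than to other chromatin recovered with the antibody. The unc-119 gene lies on III at 10902641 to 10908935, and 0 pooled regions had a summit within 1 kb of it.

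ZIM-3 is one of a family of C. elegans zinc finger proteins that bind pairing centres, the chromosome ends at which homologous chromosomes pair in meiosis. It is known for the pairing centres of chromosomes I and IV, while its relative ZIM-1 serves II and III. Chromosome III is therefore an autosome whose pairing centre is not known as a ZIM-3 site. In worms the autosomes have gene-rich centres and more repetitive arms.

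The sequences below were chosen because they carry the strongest or the most informative summits of III. All are from the RefSeq sequence of assembly WBcel235 (ce11). The first 4 are the only regions of III narrower than the common width of 376 bp, and all 4 were high-signal. They are given on the plus strand from end to end. The dos-3 region, chrIII:835921-836123, lies in an exon of dos-3, which encodes a secreted relative of Notch co-ligands. The rpl-3 region, chrIII:3867456-3867668, lies upstream of a gene for a large-subunit ribosomal protein. The K12H4.5 region is chrIII:8043884-8044043. The tasp-1 region, chrIII:10759212-10759305, lies upstream of a gene for a taspase protease. Capitals in the rpl-3 and tasp-1 regions mark a word that both hold, TACACTCCGCC.

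dos-3 region: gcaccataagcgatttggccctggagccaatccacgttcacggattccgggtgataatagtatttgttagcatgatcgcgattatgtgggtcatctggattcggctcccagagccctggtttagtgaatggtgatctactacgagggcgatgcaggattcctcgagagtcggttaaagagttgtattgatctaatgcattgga
rpl-3 region: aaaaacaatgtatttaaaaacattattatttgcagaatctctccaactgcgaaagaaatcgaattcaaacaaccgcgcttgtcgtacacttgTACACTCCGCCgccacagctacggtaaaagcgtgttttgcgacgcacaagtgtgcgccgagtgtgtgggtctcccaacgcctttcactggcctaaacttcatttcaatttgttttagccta
K12H4.5 region: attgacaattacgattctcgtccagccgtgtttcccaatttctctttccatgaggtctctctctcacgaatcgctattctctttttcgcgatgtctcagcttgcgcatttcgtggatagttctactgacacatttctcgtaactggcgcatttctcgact
tasp-1 region: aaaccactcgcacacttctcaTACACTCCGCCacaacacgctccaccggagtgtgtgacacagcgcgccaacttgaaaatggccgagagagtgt

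The word was picked after these sequences were seen. Within 50 bp of the summit, on either strand, it was in 2 of the 167 high-signal regions of III, in 0 of the 553 of the other autosomes and in 3 of all 30000 regions. The genome holds 22 copies, 5 of them on III.

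The other pair, also on the plus strand, shows the B box core of tRNA genes, the internal promoter element bound by the polymerase III factor TFIIIC. The letters searched were GTTCGANNC on both strands, and the match, here on the minus strand, is in capitals. The sup-5 region, chrIII:8678391-8678541, covers part of the tRNA-Trp gene sup-5. The pat-4 region, chrIII:89277-89427, lies beside the integrin-linked kinase gene pat-4, and the nearest annotated tRNA, snoRNA or snRNA gene was 38670 bp away.

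sup-5 region: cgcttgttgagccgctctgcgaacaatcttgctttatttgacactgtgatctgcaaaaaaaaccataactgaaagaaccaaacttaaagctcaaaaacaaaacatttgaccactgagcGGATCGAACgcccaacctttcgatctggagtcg
pat-4 region: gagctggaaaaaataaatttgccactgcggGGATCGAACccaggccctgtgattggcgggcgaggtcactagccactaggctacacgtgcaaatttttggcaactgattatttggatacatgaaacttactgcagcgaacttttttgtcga

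Chromosome III carried high-signal regions at the highest density of any chromosome. It held 12.1 per Mb, against 9.49 on II, 8.76 on I, 8.40 on IV and 6.17 on V, and 8.04 over these other autosomes together. Chromosome X held 10.5 per Mb. High-signal regions were 3.53% of the regions of III, beside 3.02% of all pooled regions and 2.77% of those of the other autosomes. Regions of any signal were also denser on III, at 343 against 291 per Mb.

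In a quasi-Poisson regression over 1 Mb bins of the autosomes (n = 82 bins, 14 of them on III), the density of high-signal regions on III was 1.51 times that on the other autosomes (95% interval 1.15 to 1.98, 2-sided p = 0.00531, adjusted p = 0.0155 by Benjamini-Hochberg over 13 tests). For all regions the ratio was 1.18 (1.06 to 1.31, n = 82 bins, adjusted p = 0.0155). Of the 13 tests, 5 (38.5%) had an adjusted p under 0.05, and these were the 5 on density. The odds that a region was high-signal were 1.29 times higher on III (1.01 to 1.64), with an adjusted p of 0.0847, which missed the threshold. The call for high-signal density was lost when chromosome V, the sparsest, was left out (1.37, n = 61 bins, adjusted p = 0.0847), when bin 6 of III was left out (1.40, n = 81 bins, adjusted p = 0.0680) and when the regions were taken from replicate 2 alone (1.38, n = 82 bins, adjusted p = 0.0930). It was also lost with the 500 highest regions (1.44, 0.973 to 2.12, n = 82 bins, adjusted p = 0.173). The call for all regions was lost from replicate 2 alone (1.15, n = 82 bins, adjusted p = 0.0930). Bins along a chromosome were treated as independent, although III is 1 chromosome set against 4, and an exact test over the 5 autosomes could not give a p below 0.2.

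The ratio was not the same at every signal rank. It was 1.51 for the 250 highest regions (0.871 to 2.60) and 1.51 for ranks 251 to 906 (1.16 to 1.96). It was 1.24 for ranks 907 to 2000, 1.31 for ranks 2001 to 5000 and 1.25 for ranks 5001 to 10000. In the lower ranks it was 1.12 and then 1.14. The intervals overlapped, and the trend itself was not tested.

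**Figure D1:**
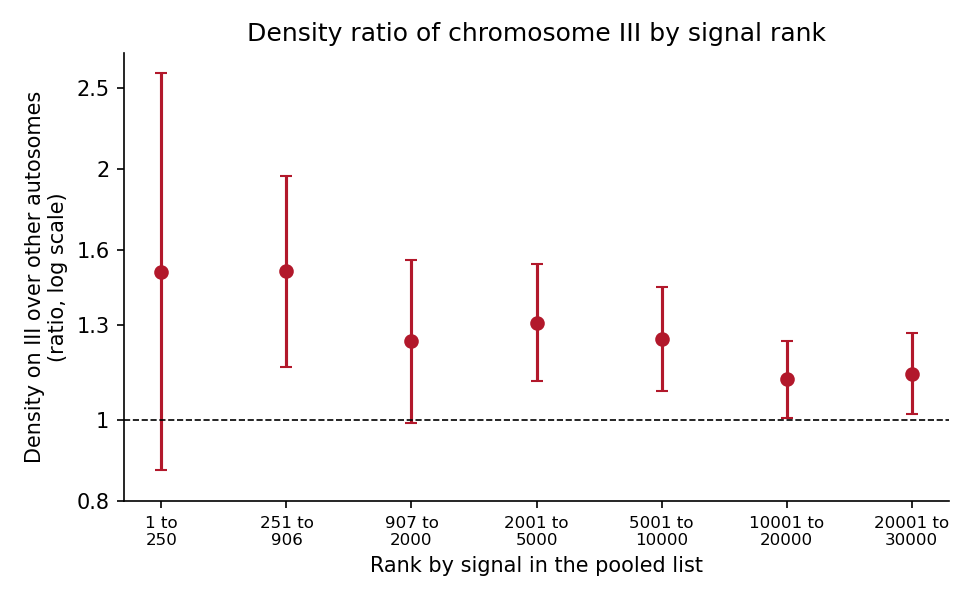
Density of regions on chromosome III divided by that on the other autosomes (vertical, log scale) for 7 classes of rank by signal in the pooled list (horizontal). Points are ratios and bars are 95% intervals of the quasi-Poisson fits, and the ratio goes from 1.51 in the 2 highest classes to 1.12 and 1.14 in the 2 lowest.

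Gene density and promoter density left the ratio where it was. Chromosome III had 191.5 protein-coding genes per Mb, fewer than the 212.3 of the other autosomes, and 21.6% of its bases lay within 500 bp of a protein-coding transcript start, against 24.6%. Its tRNA, snoRNA and snRNA genes numbered 9.50 per Mb, against 9.36. With gene density in the fit the ratio for III was 1.51 (1.14 to 2.00), with promoter density 1.53 (1.15 to 2.05), and with promoters and small RNA genes 1.47 (1.15 to 1.89). Each had an adjusted p of 0.0155.

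Of these covariates, small RNA genes went with the count of high-signal regions. A doubling of their density (plus 1 per Mb) went with 1.41 times as many (1.21 to 1.64, n = 82 bins, adjusted p = 7.3e-05 over 6 covariate terms). A doubling of gene density went with 1.02 times as many (0.714 to 1.46) and of promoter density with 1.10 times as many (0.699 to 1.73), neither passing the test. For all regions, a doubling of promoter density went with 1.26 times as many (1.07 to 1.48, n = 82 bins, adjusted p = 0.0159).

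A fit to the other autosomes alone predicted 110.8 high-signal regions on III from its length. It predicted 113.3 from gene density, 114.2 from promoters and 115.7 from promoters with small RNA genes, where 167 were observed. In each of these 4 predictions, 11 of the 14 bins lay above the predicted count. The bins below the last prediction were bin 1 with 7 regions, bin 3 with 3 and bin 4 with 6.

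**Figure D2:**
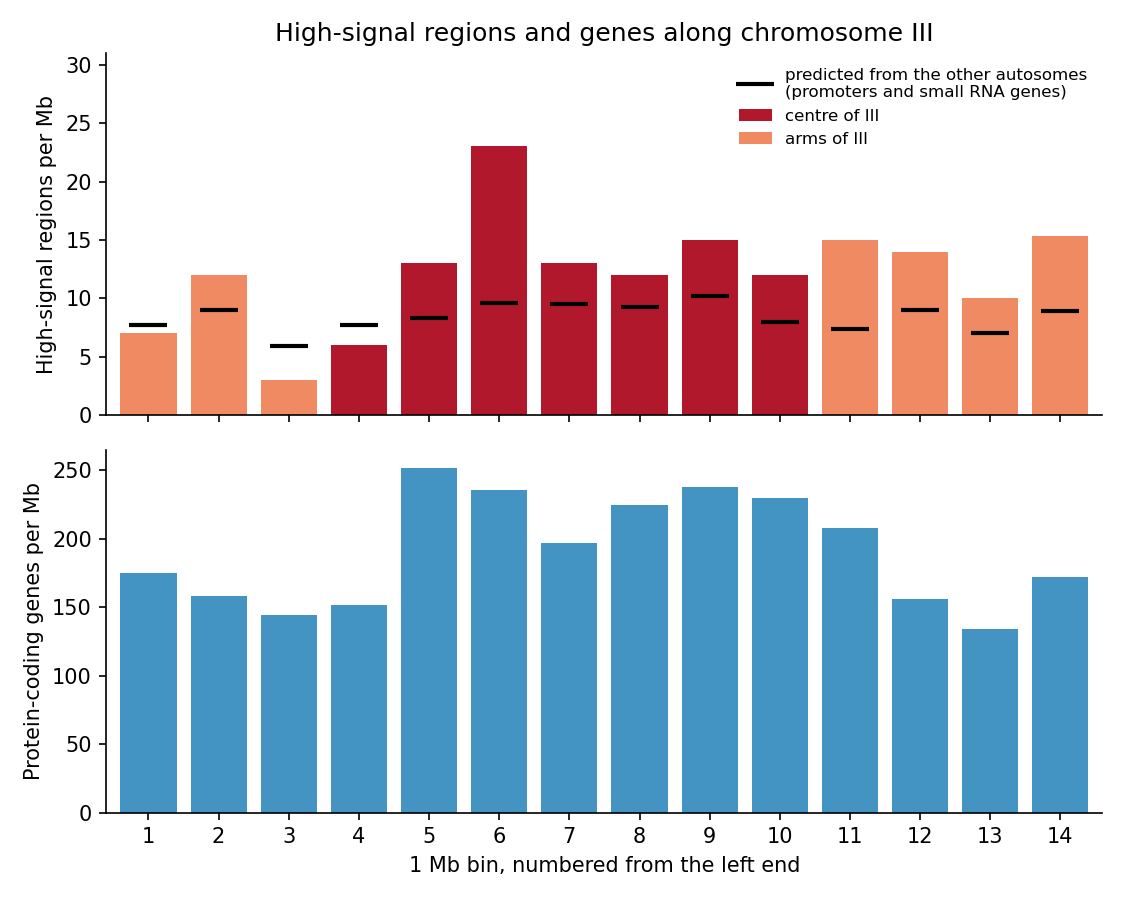
High-signal regions per Mb (top) and protein-coding genes per Mb (bottom) in the 14 bins of chromosome III, numbered from the left end. Black bars are the numbers predicted from promoters and small RNA genes by the fit to the other autosomes. The observed density is above the prediction in 11 of 14 bins and is highest in bin 6, with 23 regions.

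Along the chromosome, the counts were 7, 12 and 3 in bins 1 to 3 and 6 in bin 4, and none of bins 5 to 14 had fewer than 10. Bin 6 held 23 high-signal regions and 439 regions in all, the most by either count. Bin 3 held 3 and 249, the fewest by either count. The right arm was not sparse, with 15, 14, 10 and 12 high-signal regions in bins 11 to 14, of which the last is 783801 bp long. The centre, the bins with midpoints in the middle 50% of the chromosome, held 13.4 per Mb and the arms 10.8. The arms had 0.801 times the density of the centre (0.502 to 1.28, n = 14 bins, adjusted p = 0.417), a difference within the spread between bins. For all regions the ratio was 0.886 (0.758 to 1.04, n = 14 bins, adjusted p = 0.169), and it passed the test with 100 kb bins (0.862, n = 138 bins, adjusted p = 0.00576). Neither ratio was shown to differ from that of the other autosomes (interaction ratios 0.884 and 0.973, n = 82 bins, adjusted p = 0.782 and 0.861).

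Gene-rich bins of III held more high-signal regions. Over the 14 bins of III, high-signal regions per Mb had a Spearman correlation of 0.56 with protein-coding genes per Mb and of 0.72 with small RNA genes per Mb. Over the 68 bins of the other autosomes the correlations were -0.10 and 0.34. Neighbouring bins share a chromosome, so these describe the bins only. In a fit added after the bins had been seen, a doubling of gene density went with 2.22 times as many high-signal regions on III (1.11 to 4.45) and 0.855 times as many on the other autosomes (0.574 to 1.27). The ratio of these was 2.60 (n = 82 bins), with p = 0.0375 and an adjusted p of 0.0605 over 3 such terms, so it failed the correction. The ratio for promoter density was 3.02 (n = 82 bins, adjusted p = 0.0605) and that for small RNA genes 1.37 (adjusted p = 0.182).

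**Figure D3:**
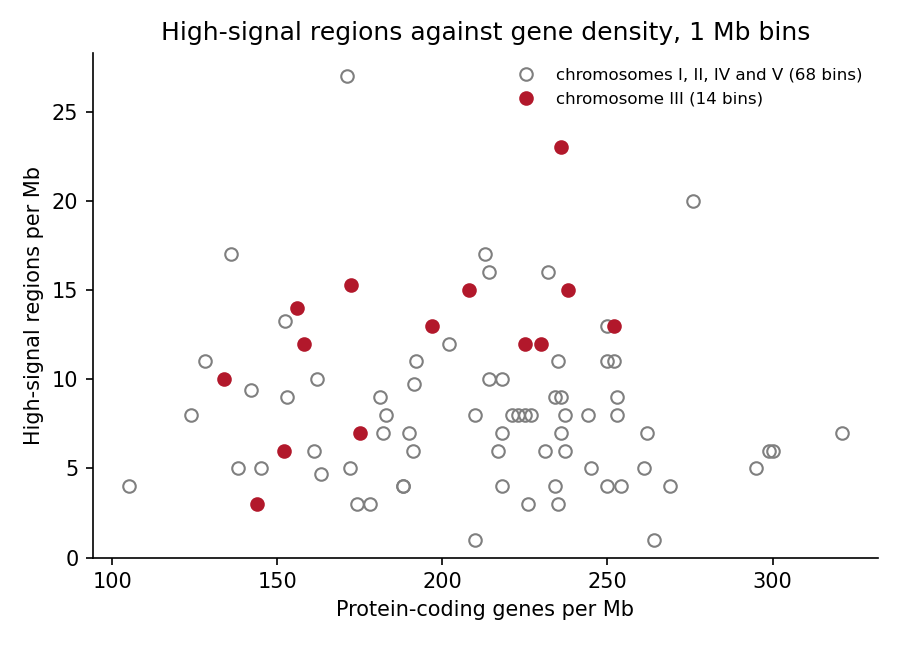
High-signal regions per Mb (vertical) against protein-coding genes per Mb (horizontal) in 1 Mb bins. Filled points are the 14 bins of chromosome III and open points the 68 bins of the other autosomes; the Spearman correlation is 0.56 on III and -0.10 elsewhere.

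The signal of regions on III was close to that elsewhere. Pooled regions of III ranged from 50.5 to 680.2 with a median of 68.3, and the median of the other autosomes was 67.3. The median log2 signal per bin was higher on III by 0.02 (-0.0033 to 0.0418, linear regression, n = 82 bins, adjusted p = 0.151). High-signal regions had medians of 174.5 on III and 174.6 on the other autosomes.

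Promoters were the most frequent gene context of high-signal summits of III, without holding the majority. Of the 167, 72 (43.1%, 95% exact Clopper-Pearson interval 35.5 to 51.0) lay within 500 bp of a protein-coding transcript start. Of these 72, 43 were upstream of the nearest start and 29 at or downstream of it, with a median position of -54.5 bp. Another 38 (22.8%) were intergenic, 29 (17.4%) were in other exons and 28 (16.8%) in introns, while introns made up 31.7% of the bases of III. Only 25.7% of all regions of III were at promoters and 35.1% were in other exons. Near small RNA genes lay 39 summits, 23.4% of the 167, beside 2.39% of all regions of III and 0.946% of its bases. The 39 were 24 near tRNA genes, 9 near snoRNA genes and 6 near snRNA genes. Of the 72 promoter summits, 60 were not near a small RNA gene, so these classes overlap.

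No gene context of III was shown to differ from that of the other autosomes. Of 8 classes compared by quasi-binomial regression over bins, 0 (0%) had an adjusted p under 0.05. In the main fit, 0 had an unadjusted p under 0.05. The class nearest to it was snoRNA genes, near 5.39% of the high-signal summits of III and 11.0% of those elsewhere (odds ratio 0.459, 0.189 to 1.12, n = 82 bins, p = 0.0631, adjusted p = 0.504). The promoter shares were 43.1% and 42.5% (odds ratio 1.03, 0.702 to 1.50) and the tRNA shares 14.4% and 15.6% (0.911, 0.503 to 1.65). These intervals include sizeable differences in either direction.

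**Figure D4:**
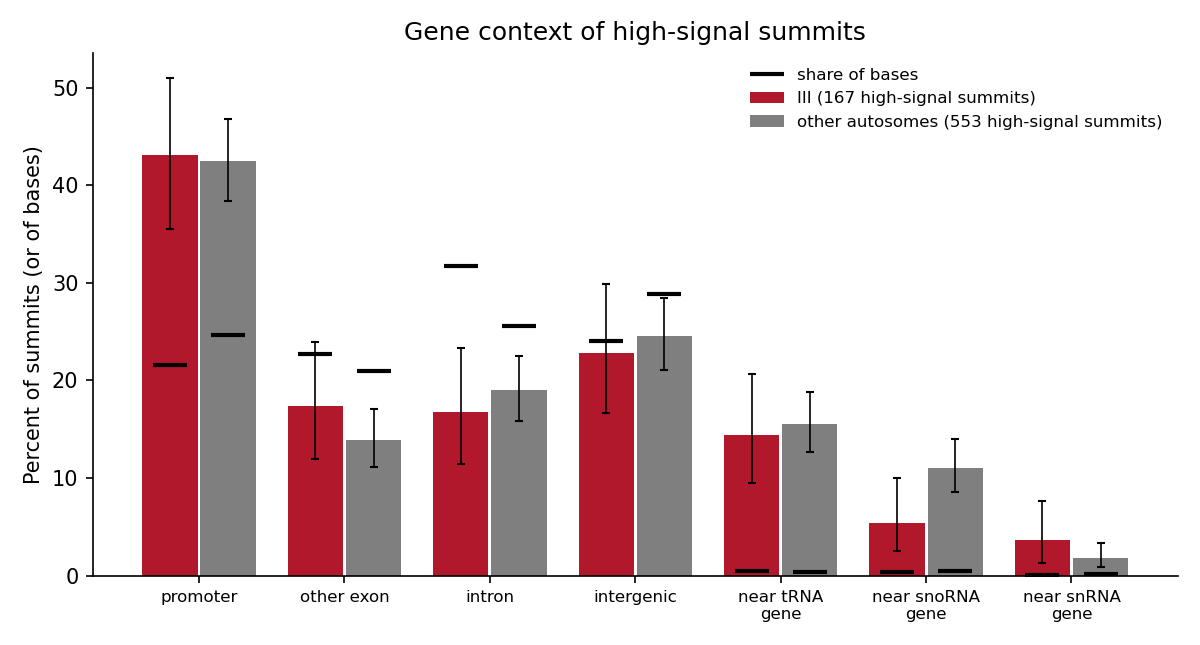
Percent of high-signal summits (vertical) in 4 exclusive gene contexts and near 3 kinds of small RNA gene, on chromosome III (167 summits) and on the other autosomes (553 summits). Whiskers are 95% exact binomial intervals over summits and black bars are the percent of bases in each class. Promoter shares are 43.1% and 42.5%, both above the share of bases.

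The 25 highest regions of III all had a summit of each replicate within 200 bp, and 14 were at promoters, 5 intergenic, 5 in introns and 1 in another exon. The highest was in dos-3, with a signal of 680.2 in the pooled list, 502.3 in replicate 1 and 175.1 in replicate 2. The summit 291 bp upstream of rpl-3 had 648.1, with 504.2 and 141.3 in the replicates. Each list has its own scale, so signal levels are not comparable between the replicates. By rank, dos-3 was at 4 in each replicate and rpl-3 at 3 and 9 in replicates 1 and 2. Both regions stood well above the third, 532 bp upstream of K12H4.5, which had 462.3 in the pooled list and 347.0 and 112.7 in the replicates.

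The next regions lay at genes of several kinds. The summit 154 bp upstream of set-16, which encodes a histone H3 lysine methyltransferase, had a pooled signal of 431.6 (305.8 and 125.4 in replicates 1 and 2). The summit 51 bp upstream of tasp-1 had 406.9 (291.8 and 122.5). A summit 919 bp upstream of cbp-1, the p300/CBP histone acetyltransferase, had 329.0 (229.3 and 96.5). A summit 136 bp inside prmt-5, a protein arginine methyltransferase gene, had 294.4 (190.8 and 120.9). Ranks in replicates 1 and 2 were 26 and 16 for set-16 and 30 and 19 for tasp-1. They were 71 and 54 for cbp-1 and 149 and 21 for prmt-5. Other promoter summits of this height were 15 bp upstream of cux-7 (352.9), 252 bp upstream of R107.5 (328.0), 177 bp upstream of Y22D7AL.10 (325.5) and 53 bp upstream of atx-2, the ataxin-2 orthologue (308.6).

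A summit inside cdk-5, a cyclin-dependent kinase gene, and 65 bp upstream of kel-3 had 316.6. A summit 162 bp upstream of ufbp-1 and just beyond the end of the chaperone gene hsp-110 had 316.9. The pat-4 summit had 306.6, with 240.2 and 61.2 in replicates 1 and 2 (ranks 58 and 256). Lower in this group were rpl-35, a ribosomal protein gene, with 268.5, and Y56A3A.22 with 265.2. The summit in hmt-1, a gene for heavy metal tolerance, had 249.6 and lay 798 bp from sls-2.15, a gene for a spliced leader RNA. In the bins without any of the 25 highest, the highest regions were near W04B5.3 in bin 3 (190.2), 627 bp upstream of the dynein light chain gene dlc-1 in bin 7 (210.0) and 270 bp upstream of the cytochrome oxidase gene cox-5A in bin 13 (238.6).

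Small RNA genes accounted for 8 of the 25. The summit in an intron of dhc-4 had 417.6 (291.9 and 122.1 in the replicates). The summit 7 bp from the snoRNA gene T04A8.17, 498 bp inside ppat-1, had 335.2 (249.7 and 85.0). The summit near sup-5, in an intron of the actin regulator gene fli-1, had 310.7 (212.9 and 87.7). The others were the snoRNA gene F30H5.4 beside the myosin chaperone gene unc-45 (307.3), the tRNA-Leu gene C14B9.t2 in an intron of C14B9.3 (274.1), the snoRNA gene C05D2.15 in an intron of madf-11 (268.7), a summit beside the aldehyde dehydrogenase gene alh-1 (263.7) and the tRNA-Met gene T15B12.t1 (247.7).

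Of the small RNA genes on III, 44 of 131 (33.6%) had a high-signal summit within 500 bp, beside 31.6% over all chromosomes and 25.8% on the other autosomes. For tRNA genes it was 30 of 64 (46.9%) on III, 34.6% on the other autosomes and 41.7% over all chromosomes. For snoRNA genes it was 9 of 54 (16.7%), 23.9% and 21.1%, and for snRNA genes 5 of 13 (38.5%), 8.85% and 11.6%. The differences between these shares of genes were not tested. The 30 tRNA genes shared 24 summits, since a summit between a close pair counts for both. All 4 tRNA-Glu genes and all 3 tRNA-Met genes of III had one, as did 5 of 6 tRNA-Thr and 5 of 8 tRNA-Ser genes. None of the 4 tRNA-Phe, 3 tRNA-Ile, 3 tRNA-Tyr and 2 tRNA-Val genes did. The highest tRNA signals after sup-5, C14B9.t2 and T15B12.t1 were 243.6 at a tRNA-Pro pair and 237.3 at a tRNA-Met and tRNA-Glu pair. Of 27 annotated miRNA genes on III, 3 (11.1%) had a high-signal summit within 500 bp, beside 4.21% over all chromosomes and 3 of 160 on the other autosomes. The counts are small and the difference was not tested. The genes were mir-80 (159.5), mir-2214 (161.8) and mir-4936 (214.3).

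The B box core lay within 50 bp of the summit in 14 of the 167 high-signal regions of III (8.38%) and in 9.04% of those of the other autosomes. It was in 1.23% of the lower regions of III, in 1.59% of all pooled regions and in 0.794% of windows of the same length tiling III. Near tRNA genes 7 of 24 regions had it, and away from them 7 of 143 (4.90%), among them the pat-4 region shown above. The match in the sup-5 region shown above ends just outside this window, so that region was not counted as having it. The median GC content within the same window was 45.5% in high-signal regions of III, 48.5% in those of the other autosomes, 42.6% in the lower regions of III and 35.6% over III. The part of base composition in the match counts was not tested.

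Protein-coding genes of III had a high-signal summit within 1 kb of their start in 114 of 2640 cases (4.32%), beside 2.5% over all chromosomes and 2.29% on the other autosomes. Among cytosolic ribosomal protein genes, 4 of 19 had one, against 19 of 60 on the other autosomes. They were rpl-3, rpl-35, rps-1 (218.0) and rps-12 (161.8, also within 500 bp of a snoRNA gene). Respiratory chain genes had one in 4 of 11, against 6 of 32. These were the cytochrome oxidase genes cox-6A (263.7, the alh-1 summit, also within 500 bp of a small RNA gene) and cox-5A. The others were the complex I genes nduf-9 (214.3) and nduf-2.2 (210.0, the dlc-1 summit). The nduf-9 summit lay 74 bp from Y53G8AL.4 and had no match in replicate 2. Heat shock and chaperone genes had a high-signal summit in 2 of 11, against 7 of 44. These were the mitochondrial chaperonin gene hsp-60 (325.5, the Y22D7AL.10 summit) and hsp-110 (152.5). Translation factors had one in 1 of 6, eef-1A.1 (145.3), against 3 of 32. Splicing factors had one in 2 of 14, prp-19 (236.6) and snr-6 (155.2), against 3 of 34. The prp-19 summit lay nearer to another start, 51 bp upstream of K10D2.5. The snr-6 summit lay 293 bp inside pie-1, and its rank in replicate 1 was only 10042. Of 8 meiotic pairing, synapsis and recombination genes on III, brd-1, the BARD1 orthologue, had one (145.2), at a summit also within 500 bp of a pair of tRNA-Gly genes. On the other autosomes, 0 of 47 genes of this list had a high-signal summit within 1 kb of their start.

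The other lists had no such member on III. They were the Mediator subunits (0 of 7), histones (0 of 3), cuticle collagens (0 of 14), germ granule and small RNA factors (0 of 8), proteasome subunits (0 of 8), body wall muscle genes (0 of 6), chemoreceptors (0 of 29) and major sperm proteins (0 of 1). On the other autosomes such members were 2 of 19 Mediator subunits, 5 of 73 histones and 4 of 133 collagens. They were also 2 of 41 germ granule and small RNA factors, 1 of 25 proteasome subunits and 5 of 1209 chemoreceptors. Muscle genes (0 of 21) and major sperm proteins (0 of 34) had none there. The counts are small and were not tested.

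Some high-signal regions lay close together. Joined where summits lay within 10 kb, the 167 formed 122 groups, and 31 groups of more than 1 held 76 summits. The largest held 5 summits from 1616744 to 1626814, around hsp-60, with a highest signal of 325.5. The 553 of the other autosomes formed 438 groups. With each group counted once, the density ratio for III was lower, at 1.39 (1.10 to 1.75, quasi-Poisson fit, n = 82 bins, adjusted p = 0.0199). The density tests kept their side of the threshold.

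The 2 replicates each placed a like number of their strongest regions on III. Of the 906 highest of each replicate's own list, replicate 1 had 165 on III and 577 on the other autosomes, and replicate 2 had 158 and 573. All 167 high-signal regions had a summit of replicate 1 within 200 bp, and 164 had one of replicate 2. The share matched in both was 98.2% on III and 98.4% elsewhere (odds ratio 0.904, 0.226 to 3.61, n = 82 bins, adjusted p = 0.887). The pooled list was made from the same reads, so this match is in part built in. The IDR list set only the cut at 906.

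The 3 unmatched regions had summits at 3249265, near nduf-9 and mir-4936, with a pooled signal of 214.3, at 1420070 (205.0) and at 10155345 (142.9). Within the high-signal set, 142 were among the 906 highest of replicate 1, 100 among those of replicate 2 and 83 (49.7%) among both, beside 301 of 553 (54.4%) on the other autosomes. In replicate 1 these regions had signals from 58.0 to 504.2 with a median of 130.2, and in replicate 2 from 15.3 to 175.1 with a median of 45.9. The Spearman correlation of the replicates over the 164 matched regions was 0.453. It is a correlation across regions of 2 libraries, with each signal taken from the replicate's own list. The regions were selected for high pooled signal, which narrows the range over which the replicates are compared.

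**Figure D5:**
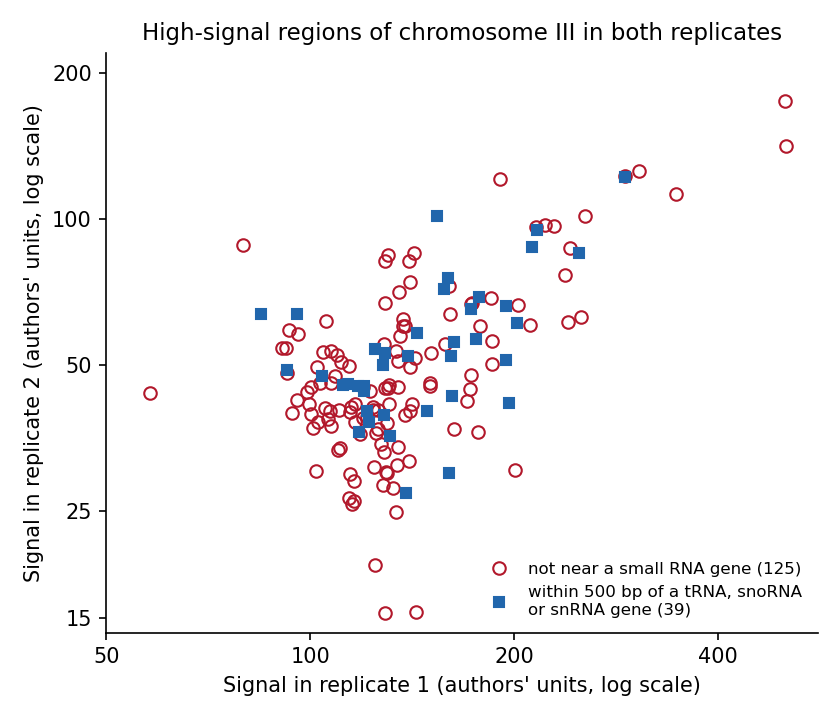
Signal in replicate 2 (vertical) against replicate 1 (horizontal), both on log scales in the authors' units, for the 164 high-signal regions of chromosome III matched in both replicates. Squares are the 39 within 500 bp of a small RNA gene and circles the other 125; the highest regions are high in both replicates and the Spearman correlation is 0.453.

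Over all regions of III the match was lower. A summit of replicate 1 lay within 200 bp of 84.4% of the 4731, one of replicate 2 of 63.1%, and both of 2408 (50.9%), against 48.6% on the other autosomes. The odds of a match in both were 1.10 times higher on III (1.01 to 1.19, n = 82 bins, adjusted p = 0.0622), which missed the threshold and passed it when the distance was set to 100 bp (adjusted p = 0.0421) or 500 bp (0.0424). The lists of the replicates held 4803 and 4632 regions on III. Near unc-119, replicate 1 had 1 region, at rank 23777 with a signal of 43.1, and replicate 2 had 1, at rank 18828 with 18.9.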

How the data were processed

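ChIP-seq region lists of 1 group with 2 biological replicates were used. Per the labels and file descriptions, the authors deposited 30000 regions (peaks and background) for each replicate and for their pool, and an IDR-thresholded list, on ce11 and ce10, made with a control library. The signal that the authors deposited has a scale of its own in each list and served to rank and describe. The sources used here name no aligner, caller or IDR threshold. No file gave reads, so depth is unknown.

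Summits were placed in 1 Mb bins and annotated with Ensembl release 115 and RefSeq (WBcel235). Densities were fitted by quasi-Poisson, shares by quasi-binomial and log2 signal by linear regression (2-sided F tests, dispersion at least 1) in statsmodels 0.14.6 with Python 3.11.15. Benjamini-Hochberg adjustment covered 13 tests and, separately, 8 gene contexts, at 0.05. Densities of genes and promoters entered as log2 with 0.5 added. The fits were tested on simulated bins drawn independently, so this does not check the treatment of bins along a chromosome as independent. At a true ratio of 1, 5.6% of count fits had an unadjusted p under 0.05. It was 4.6% for count fits with a covariate and 6.4% for share fits.

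Named genes are those at the 25 highest regions matched in both replicates, at each bin's highest region, and up to 4 per gene list on III, with unc-119. The members and lists were chosen with earlier results of these data known. Intervals over summits cover counting error only. The sequence of some small RNA genes is not reported here.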

Additional observations from a re-analysis of the deposited data

How the results depend on the processing

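Over all alternatives, 168 values kept their direction and side of the threshold, 17 lost the call, 3 gained it and 13 changed direction, the last all without a call in the main fit. The 4 high-signal density ratios (none, gene density, promoter density, promoters with small RNA genes) lost the call with the 500 highest regions (1.44, 1.43, 1.44 and 1.39), without chromosome V (1.37, 1.39, 1.43 and 1.40) and without bin 6 of III (1.40, 1.39, 1.41 and 1.38). From replicate 2 alone, without replicate 1, they were 1.38, 1.37, 1.40 and 1.36, and the ratio for all regions was 1.15, all losing the call; from replicate 1 alone, without replicate 2, they were 1.43, 1.44, 1.47 and 1.42, and 1.20, all keeping it. All stayed above 1. Calls were gained for arms against centre over all regions with 100 kb bins (0.862) and for the match of all regions within 100 bp (1.10) and 500 bp (1.12).

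Ratios that crossed 1 were, with the 500 highest regions, promoter 0.966, intergenic 1.06 and tRNA 1.22. With the 2000 highest they were the arm interaction 1.02, the match of high-signal regions 1.01, promoter 0.964 and intron 1.20. Leaving out either replicate, the ratios ranged from 0.984 to 1.12 for promoter, 0.906 to 1.41 for other exon, 0.936 to 1.02 for intron and 1.07 to 1.13 for tRNA. The odds ratio for the match of high-signal regions was 1.06 within 100 bp, 0.299 (0.0406 to 2.21) within 500 bp and 0.283 (0.0309 to 2.60) for the 500 highest, with no call in any. The cause of these shifts was not tested. The snoRNA odds ratio kept its direction over 6 alternatives, from 0.308 to 0.459, with no call (lowest adjusted p = 0.135, quasi-binomial fits). Its unadjusted p was under 0.05 with the 500 highest regions (0.0169), the 2000 highest (0.0195) and replicate 1 alone (0.0180). The share of autosomal high-signal regions on III was 23.2% on ce11 and 23.4% on ce10.

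No paired analysis was possible because there was 1 group and the tests ran over positions. Depth is unknown, so how it limits the lists could not be stated.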
